A study of Mus musculus with 9 samples.

Results

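This section describes 38 genes that encode enzymes of nucleotide synthesis, salvage and breakdown, chosen by name from the 28998 genes of the deposited table. The enzymes that take nitrogen from glutamine were left out of the choice and are given only for comparison. RNA was sequenced from bone marrow-derived macrophages of wild-type C57 mice. Monocytes were isolated from marrow and cultured with GM-CSF, a growth factor, for 7 days. The drug groups were then exposed for 36 h, and there were 3 libraries each of WGFT17, JHU083 and Control cells. JHU083 is a prodrug that releases DON, an antagonist of glutamine-using enzymes. WGFT17 is a code name, and nothing on its structure or target was used here. The labels give no dose, and for Control neither a vehicle nor a time after the culture period, so an effect of culture time and an effect of the drug cannot be told apart in the comparisons with Control. Nor do they name the cultures or animals behind the libraries of a group, and p-values thus cover only the spread between these libraries, which may be technical.

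Purine nucleotides are built de novo on phosphoribosyl pyrophosphate up to inosine monophosphate (IMP), from which separate branches lead to AMP and GMP. Pyrimidine synthesis passes through orotate to UMP, and thymidylate is made from dUMP by methylation. Salvage enzymes return free bases and nucleosides to the nucleotide pool, nucleotide kinases add further phosphates, and breakdown enzymes strip phosphates and sugars and oxidise purine bases to urate. Cells that replicate DNA draw on the thymidylate steps.

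Of the 38 genes, 14 act de novo, 10 in salvage, 6 as nucleotide kinases and 8 in breakdown. Levels are given as the deposited FPKM, fragments scaled to transcript length and depth. Changes are log2 changes of the deposited estimated counts in edgeR's quasi-likelihood test, with p-values adjusted by Benjamini-Hochberg over the 11798 genes that averaged 1 FPKM or more, and a gene was called at an adjusted p under 0.05. Of the 38, 36 reached that mean and were tested. Cda (cytidine deaminase, mean 0.181 FPKM) and Nt5e (the ectonucleotidase that makes adenosine outside the cell, 0.259 FPKM) did not, and the lowest tested genes were Cmpk2 (1.253 FPKM) and Dhodh (1.447 FPKM). Cda was between 0.08 and 0.19 FPKM in WGFT17 libraries, 0.14 and 0.25 in JHU083 and 0.17 and 0.27 in Control. Nt5e was between 0.21 and 0.24 FPKM in WGFT17, 0.22 and 0.36 in JHU083 and 0.22 and 0.35 in Control, so the groups of both genes overlapped.

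Totals of the estimated counts lay between 56624220 and 69112134 per library, and about 4 counts stand for 1 read pair. The 10 macrophage markers together had 17700 to 19700 CPM (estimated counts relative to the library's total) in WGFT17, 18900 to 20200 CPM in JHU083 and 18000 to 19400 CPM in Control, and none of the 10 was at 0. The sum is dominated by Lyz2: with WGFT17, 2 of the 10 rose and 4 fell, and with JHU083 1 rose and 3 fell. Mrc1 had 64.63, 62.26 and 55.30 FPKM in WGFT17, against 121.80, 121.76 and 102.50 in Control. Markers of other cells were present as well. The 11 stromal and endothelial markers summed to 2530 to 2690 CPM in WGFT17, 9790 to 11400 in JHU083 and 14900 to 15900 in Control. JHU083 replicate 3 stood apart from its group: 10 photoreceptor genes together had 0.813 to 1.16 CPM in WGFT17, 0.965, 0.742 and 36.8 CPM in the JHU083 libraries (replicate 3 last) and 31.8 to 41.3 CPM in Control. The 12 heart muscle genes summed to 1.32 to 1.9 CPM in WGFT17, 213, 1.76 and 332 in JHU083 and 274 to 320 in Control. In these genes it was JHU083 replicate 2 that stood apart, at the level of WGFT17. In bulk samples, fewer cells of a type and less RNA per cell cannot be told apart.

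In WGFT17 cells, 6 of the 36 tested nucleotide genes rose and 13 fell against Control, while 17 did not pass the test. Limma on FPKM gave 13 higher and 12 lower, so the excess of falls rests on the scale. The count fit's share is 52.8% called, below the 58.0% of all tested genes in this comparison (28.0% higher and 30.0% lower). In JHU083 cells, 3 rose and 7 fell against Control and 26 did not pass, which is 27.8% called beside 24.0% of all tested genes (11.5% higher and 12.5% lower). Neither share stood far from its background, so the counts alone set the nucleotide genes apart in neither comparison. Called changes of at least 0.5 on the log2 scale were found for 7 of the 36 genes with WGFT17, where 29.6% of all tested genes had one. With JHU083 there were 2 such genes, where 6.59% of all tested genes had one. On FPKM, all 3 WGFT17 libraries lay above all 3 of Control for 16 of the 36 genes and below them for 13, where 73.2% of all tested genes had no overlap. JHU083 lay above Control for 10 and below it for 9, where 43.7% of all tested genes had no overlap, and WGFT17 lay above JHU083 for 16 and below it for 11, where 53.4% had none.

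**Figure D1:**
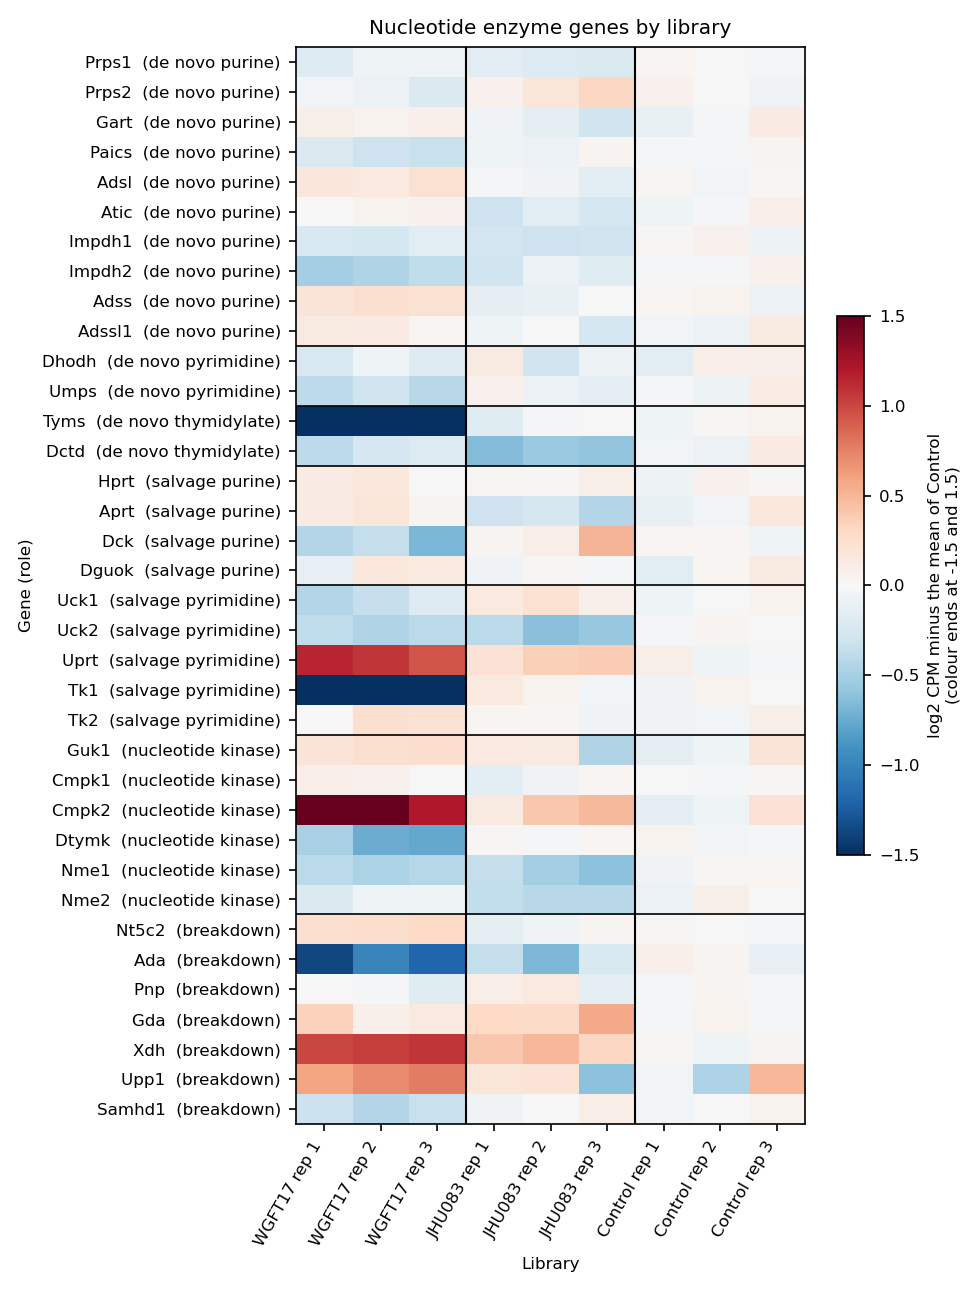
Colours show log2 CPM of each of the 36 tested genes (rows, by role) in each library (columns, WGFT17, JHU083 and Control) minus the mean of the 3 Control libraries, with colours ending at -1.5 and 1.5. Tyms and Tk1 are lower in all 3 WGFT17 libraries, and Uprt, Cmpk2 and Xdh are higher in them.

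The largest falls among the 36 genes were those of Tk1 and Tyms in WGFT17 cells. Thymidine reaches DNA either through Tyms, the thymidylate synthase that methylates dUMP, or through Tk1, the cytosolic thymidine kinase of dividing cells, and both products are then phosphorylated by Dtymk, the thymidylate kinase. The promoter windows of these 3 genes are shown because the genes fell together. Impdh2 of the GMP branch, which also fell, is shown beside them for its motifs. Each window runs from 250 bases before to 50 bases after a RefSeq start site, is read on the gene's strand and was taken from RefSeq on build GRCm38.p6. Capitals mark exact matches on either strand to an E2F site (TTCCCGC or TTGGCGC) or an E-box (CACGTG).
Tk1 (chr11:117825965-117826264, minus strand): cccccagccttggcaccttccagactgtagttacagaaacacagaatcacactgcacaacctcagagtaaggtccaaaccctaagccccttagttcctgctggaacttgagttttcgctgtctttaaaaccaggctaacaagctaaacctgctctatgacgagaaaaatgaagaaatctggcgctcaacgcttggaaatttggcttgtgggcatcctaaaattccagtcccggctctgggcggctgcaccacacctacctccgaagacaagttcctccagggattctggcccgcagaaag
Tyms (chr5:30073576-30073875, minus strand): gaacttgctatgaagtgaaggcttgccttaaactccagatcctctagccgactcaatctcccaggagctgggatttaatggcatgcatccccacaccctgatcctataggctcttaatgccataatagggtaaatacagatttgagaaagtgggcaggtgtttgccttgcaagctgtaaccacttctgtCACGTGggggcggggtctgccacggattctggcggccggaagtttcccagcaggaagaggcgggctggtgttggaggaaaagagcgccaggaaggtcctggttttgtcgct
Dtymk (chr1:93801885-93802184, minus strand): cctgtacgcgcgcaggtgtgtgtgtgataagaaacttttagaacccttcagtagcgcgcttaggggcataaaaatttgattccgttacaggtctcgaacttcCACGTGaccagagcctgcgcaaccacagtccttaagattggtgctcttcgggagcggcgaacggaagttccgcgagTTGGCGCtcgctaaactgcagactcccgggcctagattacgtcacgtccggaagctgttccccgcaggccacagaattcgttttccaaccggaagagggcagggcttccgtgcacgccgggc
Impdh2 (chr9:108560186-108560485, plus strand): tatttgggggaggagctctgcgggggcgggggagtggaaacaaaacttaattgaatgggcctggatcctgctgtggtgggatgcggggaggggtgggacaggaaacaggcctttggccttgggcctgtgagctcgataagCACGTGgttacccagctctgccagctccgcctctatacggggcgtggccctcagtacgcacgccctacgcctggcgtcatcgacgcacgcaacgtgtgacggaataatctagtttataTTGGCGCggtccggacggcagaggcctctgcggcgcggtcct
Dtymk held an E2F site from base -72 to -66 and an E-box from -148 to -143, counted from the start site. Tyms held an E-box from -61 to -56, and Impdh2 an E2F site from 8 to 14 and an E-box from -110 to -105. The Tk1 window held neither, which says only that these letters are absent from it, and the RefSeq start used lies 78 bases inside the gene as the table gives it (150 bases for Impdh2). Of 36 members with a window, 5 held an E2F site (Prps1, Prps2, Impdh2, Adss and Dtymk). By window this was 5 of 51, beside 6.8% of all 32851 windows. The E-box was found in 7 members (Paics, Atic, Impdh2, Tyms, Dtymk, Nme1 and Nt5c2). By window this was 8 of 51, beside 7.2% of all windows, and some members have several windows. Prps1 and Prps2 with the E2F site did not pass in WGFT17 cells, and Adss rose, so windows with the motif were not confined to genes that fell.

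Tk1 (chromosome 11, 117815526 to 117826092, minus strand, GRCm38) had 1.95, 1.89 and 1.74 FPKM in WGFT17 libraries, 10.09, 9.40 and 8.74 in JHU083 and 8.17, 8.84 and 8.45 in Control. All WGFT17 libraries lay below the other 6, and JHU083 and Control overlapped. The log2 change was -2.29 in WGFT17 cells against Control (SE 0.076, adjusted p = 1.03e-09), a 4.90-fold lower level, and 0.05 in JHU083 cells (95% interval -0.10 to 0.21, adjusted p = 0.609). Tk1 overlaps Afmid and Gm20708 on the opposite strand, which had 1.007 and 1.03 FPKM in WGFT17. Whether the authors counted by strand is not stated, so reads of the opposite genes cannot be told apart from those of Tk1.

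Tyms (chromosome 5, 30058202 to 30073617, minus strand, GRCm38) had 0.61, 0.85 and 0.77 FPKM in WGFT17 libraries, 2.46, 2.71 and 2.76 in JHU083 and 2.47, 2.64 and 2.66 in Control. The WGFT17 libraries were again the 3 lowest, and the other groups overlapped. The change was -1.90 in WGFT17 cells (SE 0.124, 3.74-fold lower, adjusted p = 2.06e-07) and -0.07 in JHU083 cells (95% interval -0.33 to 0.19, adjusted p = 0.715). Tyms lay below 1 FPKM in every WGFT17 library and reached a mean of 1 FPKM only through JHU083 and Control. Its selection for testing thus already favoured a difference. Dtymk (chromosome 1, 93792576 to 93801934, minus strand, GRCm38) had 6.08, 5.04 and 5.01 FPKM in WGFT17, 8.57, 8.35 and 8.53 in JHU083 and 8.19, 7.75 and 7.76 in Control. It fell by 0.66 in WGFT17 cells (SE 0.088, adjusted p = 7.16e-05), and its change in JHU083 cells was 0.01 (95% interval -0.185 to 0.20, adjusted p = 0.957). On FPKM all JHU083 libraries of Dtymk lay above Control, whereas the count fit gave no difference. Over all tested genes, the median log2 change on log2(FPKM + 0.1) was 0.112 for WGFT17 and 0.093 for JHU083 against Control, and 0.004 for each in the count fit.

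Dctd, the deaminase that turns dCMP into the dUMP used by Tyms, had another order. Its levels were 1.71, 1.88 and 1.95 FPKM in WGFT17 libraries, 1.42, 1.5 and 1.46 in JHU083 and 2.04, 1.98 and 2.26 in Control. JHU083 was lowest and Control highest, with no overlap between groups. It fell by 0.61 in JHU083 cells (SE 0.119, 1.53-fold lower, adjusted p = 0.00569), and its change of -0.29 in WGFT17 cells did not pass (adjusted p = 0.0571), though it passed without JHU083 replicate 3 in the fit (-0.29, adjusted p = 0.0490).

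Genes of DNA replication moved with the thymidine genes. Of 20 S phase genes, all 20 fell in WGFT17 cells (median log2 change -0.88), and in JHU083 cells 3 rose, none fell and 17 did not pass (median 0.142). Their CPM summed to 697 to 781 in WGFT17, 1370 to 1410 in JHU083 and 1200 to 1220 in Control. Of all tested genes, 30.0% fell with WGFT17 and 11.5% rose with JHU083. The part that the share of cycling cells plays in the changes of Tk1, Tyms and Dtymk was not tested.

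In de novo purine synthesis the changes were small and went both ways. With WGFT17, 2 of 10 genes rose and 3 fell, which is 50.0% called beside 58.0% of all tested genes. The genes that rose were Adsl, the adenylosuccinate lyase (log2 change 0.18, adjusted p = 0.0216), and Adss, the adenylosuccinate synthase that opens the AMP branch (0.22, SE 0.057, adjusted p = 0.00574). Adsl averaged 8.29 ± 0.268 FPKM in WGFT17, 6.82 ± 0.393 in JHU083 and 6.77 ± 0.135 in Control, and Adss 16.3 ± 0.278 in WGFT17, 13.1 ± 0.605 in JHU083 and 12.9 ± 0.743 in Control (SD, n = 3 each). In WGFT17 the 3 libraries of each gene lay above all 3 of Control. The call of Adsl was lost without WGFT17 replicate 3 (0.157, adjusted p = 0.0837) and without Control replicate 2 (0.161, adjusted p = 0.0768).

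The dehydrogenases that open the GMP branch were lower. Impdh2 had 15.33, 15.90 and 16.82 FPKM in WGFT17 libraries, 17.66, 20.23 and 18.83 in JHU083 and 19.76, 19.89 and 20.89 in Control. WGFT17 was lowest with no overlap, and JHU083 overlapped Control. It fell by 0.44 in WGFT17 cells (SE 0.064, adjusted p = 0.000135), and its change of -0.19 in JHU083 cells did not pass (adjusted p = 0.0534), though it passed without JHU083 replicate 2 (-0.242, adjusted p = 0.0320). A share of 24.98% of the 150-base stretches of Impdh2 transcripts also occurs in another gene, its pseudogene copy, so its count is uncertain. Impdh2 also overlaps Ndufaf3 on the opposite strand, at 5.147 FPKM in WGFT17, 3.55 in JHU083 and 3.74 in Control. Impdh1, the other isoform, averaged 11.95 ± 0.435 FPKM in WGFT17, 11.24 ± 0.155 in JHU083 and 12.97 ± 0.763 in Control. It fell in both (-0.23, adjusted p = 0.00673 with WGFT17, and -0.30, adjusted p = 0.00597 with JHU083), though in limma on log2(FPKM + 1) the WGFT17 change of -0.108 did not pass (adjusted p = 0.0987).

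Upstream of IMP, Paics, which carries out successive steps of ring assembly, had 34.06, 31.86 and 31.68 FPKM in WGFT17 libraries, 37.87, 37.08 and 40.17 in JHU083 and 36.48, 36.44 and 37.42 in Control. WGFT17 was lowest without overlap. It fell by 0.29 in WGFT17 cells (adjusted p = 0.000623) and not detectably in JHU083 cells (-0.03, 95% interval -0.146 to 0.079, adjusted p = 0.670). It shares its locus with Ppat on the opposite strand, at 3.893 FPKM in WGFT17. Atic, which closes the ring to IMP, averaged 13.03 ± 0.359 FPKM in WGFT17, 10.6 ± 0.541 in JHU083 and 11.8 ± 0.650 in Control, and fell in JHU083 cells (-0.25, adjusted p = 0.0119). Without Control replicate 3 that call was lost (-0.198, adjusted p = 0.0526), as on log2(FPKM + 1) (-0.142, adjusted p = 0.0789).

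The other de novo purine genes passed in neither comparison with Control in the count fit. Adssl1, known as the muscle form of adenylosuccinate synthase, had 34.89, 34.56 and 32.61 FPKM in WGFT17 libraries, 30.21, 31.33 and 26.19 in JHU083 and 28.67, 27.90 and 32.16 in Control. It was above Adss in every library, in FPKM. Its changes were 0.09 (95% interval -0.079 to 0.263) with WGFT17 and -0.11 (-0.283 to 0.06) with JHU083. Prps1 and Prps2, which make phosphoribosyl pyrophosphate, and Gart, which carries out several ring steps, had changes between -0.12 and 0.07 with WGFT17 and between -0.20 and 0.19 with JHU083. In limma on log2(FPKM + 1), Adssl1 passed with WGFT17 (0.198, adjusted p = 0.0459) and Prps2 with JHU083 (0.256, adjusted p = 0.02025). The JHU083 change of Gart was -0.162 with all libraries, -0.099 without JHU083 replicate 3 and -0.307 with that replicate alone.

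In pyrimidine synthesis only the steps outside the glutamine-using enzyme were chosen. Umps, which makes UMP from orotate, had 10.20, 10.79 and 10.04 FPKM in WGFT17 libraries, 13.98, 12.47 and 11.87 in JHU083 and 12.11, 11.89 and 13.25 in Control. It was lower in all WGFT17 libraries and fell by 0.37 (SE 0.075, adjusted p = 0.00135), while its change of -0.05 in JHU083 cells did not pass (95% interval -0.219 to 0.109). Dhodh, the mitochondrial enzyme that makes orotate, had 1.33, 1.5 and 1.37 FPKM in WGFT17, 1.71, 1.26 and 1.46 in JHU083 and 1.30, 1.57 and 1.52 in Control. Its groups overlapped, and neither change passed (-0.17, 95% interval -0.457 to 0.119, with WGFT17 and -0.08, -0.365 to 0.211, with JHU083).

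**Figure D2:**
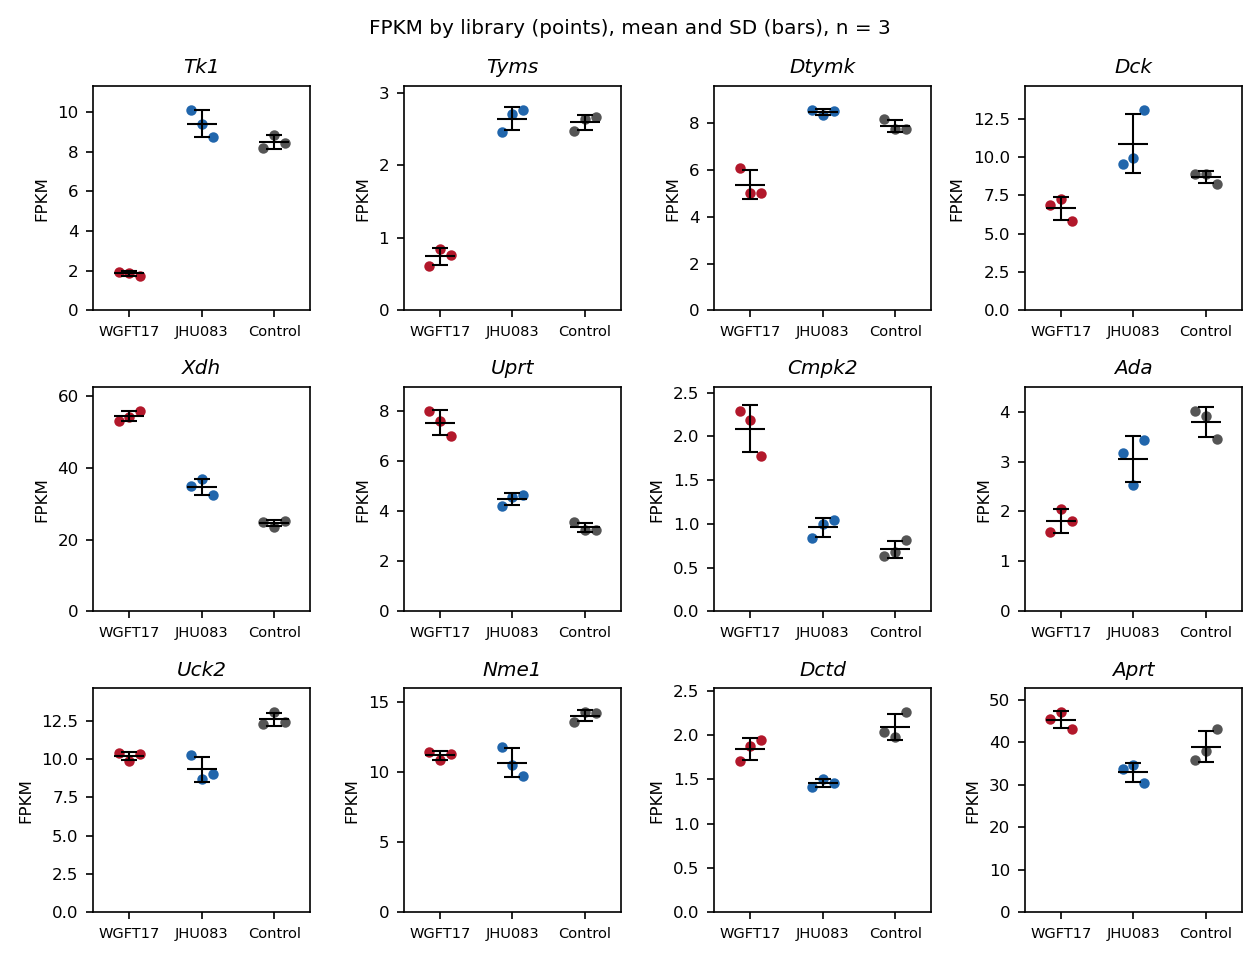
Points show FPKM of 12 of the genes in each library of WGFT17, JHU083 and Control, with the mean and SD of 3 libraries as bars; each vertical axis starts at 0. Tk1 lies between 1.74 and 1.95 FPKM in WGFT17 and above 8 in every other library, and Xdh lies between 53.25 and 55.90 FPKM in WGFT17, 32.42 and 37.03 in JHU083 and 23.67 and 25.17 in Control.

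Purine salvage was dominated by Hprt, the phosphoribosyltransferase that recovers hypoxanthine and guanine. It had 103.69, 105.56 and 95.09 FPKM in WGFT17 libraries, 95.92, 95.68 and 99.63 in JHU083 and 84.00, 92.97 and 88.58 in Control. Both drug groups lay above Control on FPKM, but the count fit gave 0.09 (95% interval -0.036 to 0.212, adjusted p = 0.201) with WGFT17 and 0.04 (-0.085 to 0.163, adjusted p = 0.645) with JHU083. On log2(FPKM + 1) the WGFT17 change was 0.194 (adjusted p = 0.0132), so its call rests on the scale. Aprt, which recovers adenine, had 45.56, 47.16 and 43.20 FPKM in WGFT17, 33.72, 34.77 and 30.45 in JHU083 and 35.96, 37.95 and 43.08 in Control. It was lowest in JHU083, where it fell by 0.34 (SE 0.078, adjusted p = 0.0113), and its change of 0.11 with WGFT17 did not pass (adjusted p = 0.257). That change passed without Control replicate 3 (0.191, adjusted p = 0.0487) and in limma on log2(FPKM + 1) (0.214, adjusted p = 0.0322).

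Dck, the deoxycytidine kinase, which also accepts deoxyadenosine and deoxyguanosine, had 6.90, 7.25 and 5.82 FPKM in WGFT17 libraries, 9.58, 9.92 and 13.07 in JHU083 and 8.89, 8.91 and 8.23 in Control. WGFT17 was lowest and JHU083 highest, without overlap. It fell by 0.49 in WGFT17 cells (SE 0.123, adjusted p = 0.00544). The change of 0.23 in JHU083 cells did not pass (adjusted p = 0.193). It rested on JHU083 replicate 3, which stood apart in the photoreceptor genes, and was 0.07 without that library. Dguok, the mitochondrial deoxyguanosine kinase, averaged 3.63 ± 0.387 FPKM in WGFT17, 3.39 ± 0.087 in JHU083 and 3.23 ± 0.327 in Control and passed in neither.

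In pyrimidine salvage, Uprt rose and the uridine-cytidine kinases Uck1 and Uck2 fell in WGFT17 cells. Uprt, the homologue of a microbial uracil phosphoribosyltransferase (chromosome X, 104482818 to 104507490, plus strand, GRCm38), had 8.01, 7.62 and 7.00 FPKM in WGFT17 libraries, 4.20, 4.59 and 4.64 in JHU083 and 3.57, 3.25 and 3.26 in Control. The groups did not overlap, with WGFT17 highest and Control lowest. It rose by 1.06 with WGFT17 (SE 0.097, 2.08-fold, adjusted p = 3.60e-06) and by 0.32 with JHU083 (SE 0.097, adjusted p = 0.0356). The JHU083 call held in 12 of 21 alternative settings, and the change was between 0.287 and 0.403 in all of them. It was lost when any of WGFT17 replicate 2 (0.320, adjusted p = 0.0530), JHU083 replicate 2 (0.299, adjusted p = 0.0932), JHU083 replicate 3 (0.287, adjusted p = 0.0615), Control replicate 2 (0.291, adjusted p = 0.116) or Control replicate 3 (0.304, adjusted p = 0.103) was left out.

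Uck2, a uridine-cytidine kinase, had 10.39, 9.90 and 10.34 FPKM in WGFT17 libraries, 10.24, 8.68 and 9.03 in JHU083 and 12.31, 13.06 and 12.38 in Control. Control was highest without overlap, and the drug groups overlapped each other. It fell by 0.41 with WGFT17 (SE 0.063, adjusted p = 0.000209) and by 0.53 with JHU083 (SE 0.063, adjusted p = 0.000774). Its relative Uck1 had 7.93, 8.37 and 9.40 FPKM in WGFT17, 11.79, 12.46 and 11.16 in JHU083 and 9.52, 10.09 and 10.26 in Control. WGFT17 was lowest and JHU083 highest, and Uck1 fell by 0.33 with WGFT17 (adjusted p = 0.00446), while 0.15 with JHU083 did not pass (adjusted p = 0.181; on log2(FPKM + 1) it was 0.224, adjusted p = 0.0336). Uck1 lies opposite Pomt1, at 3.857 FPKM in WGFT17. Uckl1, a related gene outside the 38 that was named after its values were seen, averaged 6.98 ± 0.837 FPKM in WGFT17 and 4.83 ± 0.241 in Control and rose with WGFT17 (0.42, adjusted p = 0.00856).

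For Tk2, the mitochondrial counterpart of Tk1, neither change passed. It had 13.37, 15.72 and 15.49 FPKM in WGFT17 libraries, 13.59, 13.38 and 12.60 in JHU083 and 11.95, 12.07 and 13.05 in Control, so WGFT17 lay above Control and JHU083 overlapped both. Its change of 0.16 with WGFT17 did not pass (95% interval -0.004 to 0.317, adjusted p = 0.0866), though it passed without WGFT17 replicate 1 (0.227, adjusted p = 0.0197) and in limma on log2(FPKM + 1) (0.245, adjusted p = 0.0107). With JHU083 it was -0.001 (95% interval -0.162 to 0.16, adjusted p = 0.995).

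Among nucleotide kinases, Cmpk2 rose and Dtymk and Nme1 fell in WGFT17 cells. Cmpk2, a mitochondrial UMP-CMP kinase known to be induced by interferon (chromosome 12, 26469204 to 26479837, plus strand, GRCm38), had 2.29, 2.19 and 1.78 FPKM in WGFT17 libraries, 0.84, 1.00 and 1.05 in JHU083 and 0.63, 0.68 and 0.82 in Control. WGFT17 was highest and Control lowest without overlap. Cmpk2 reached a mean of 1 FPKM only through the WGFT17 libraries, so that its selection for testing already favoured a difference. Its rise with WGFT17 was 1.43 (SE 0.166, 2.70-fold, adjusted p = 2.42e-05), and 0.34 with JHU083 did not pass (95% interval -0.026 to 0.706, adjusted p = 0.158). Interferon-induced genes moved beside it: of 18 tested of 20 listed, 15 rose with WGFT17 and 7 with JHU083, and none fell. Their CPM summed to 774 to 812 in WGFT17, 541 to 675 in JHU083 and 442 to 475 in Control. Of all tested genes, 28.0% rose with WGFT17 and 11.5% with JHU083. The part of an interferon response in the change of Cmpk2 was not tested.

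The nucleoside diphosphate kinases Nme1 and Nme2, which equalise the pools of triphosphates, are neighbours on chromosome 11. Nme2 was the highest of the 38 genes, at 140.29, 154.00 and 155.93 FPKM in WGFT17 libraries, 124.89, 120.82 and 120.12 in JHU083 and 141.91, 161.28 and 149.18 in Control. Only the JHU083 libraries stood apart, and Nme2 fell by 0.40 there (SE 0.058, adjusted p = 0.00146), beside -0.12 with WGFT17 (95% interval -0.243 to 0.011, adjusted p = 0.108). Nme1 had 11.45, 10.86 and 11.29 FPKM in WGFT17, 11.77, 10.54 and 9.71 in JHU083 and 13.60, 14.29 and 14.24 in Control. It was highest in Control and fell by 0.44 with WGFT17 (SE 0.070, adjusted p = 0.000309) and by 0.49 with JHU083 (SE 0.070, adjusted p = 0.00143). Of the 150-base stretches of Nme2, 41.82% occur in other genes, and of Nme1 8.2%. Both are joined in the readthrough gene Gm20390, which was listed at 3.89 FPKM in WGFT17 replicate 3 and at 0 in the other 8 libraries, so the counts of the pair are uncertain.

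Cmpk1, the cytosolic UMP-CMP kinase, had 30.43, 29.45 and 28.50 FPKM in WGFT17 libraries, 25.03, 26.97 and 28.41 in JHU083 and 26.27, 26.16 and 26.39 in Control. WGFT17 lay above both other groups on FPKM, but its change of 0.06 in the count fit did not pass (95% interval -0.067 to 0.18, adjusted p = 0.408), while on log2(FPKM + 1) it was 0.159 (adjusted p = 0.0246). Guk1, the guanylate kinase, averaged 9.96 ± 0.275 FPKM in WGFT17, 8.22 ± 1.83 in JHU083 and 7.90 ± 0.933 in Control, and passed in neither comparison. Its JHU083 value rested on replicate 3: the change was -0.04 with all libraries, 0.13 without that replicate and -0.46 with it alone.

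In breakdown, Xdh rose with both compounds. Xdh, the xanthine dehydrogenase that forms urate (chromosome 17, 73883895 to 73950196, minus strand, GRCm38), had 53.25, 54.16 and 55.90 FPKM in WGFT17 libraries, 34.87, 37.03 and 32.42 in JHU083 and 24.97, 23.67 and 25.17 in Control. The groups stood in this order without overlap. It rose by 1.04 with WGFT17 (SE 0.057, 2.05-fold, adjusted p = 4.83e-08) and by 0.40 with JHU083 (SE 0.056, 1.32-fold, adjusted p = 0.00131). Without JHU083 replicate 3 the JHU083 change was 0.45, and with that replicate alone 0.31. The sum of the stromal markers given above had the opposite order of groups. Of 9 tested, all 9 fell with WGFT17, but with JHU083 5 fell and 4 did not pass. Cdh5 had 3.37, 2.80 and 2.56 FPKM in JHU083, above the 2.27, 2.33 and 2.44 of Control. The part of stromal cells in the change of Xdh was not tested.

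Ada, the adenosine deaminase, went the other way. It had 1.58, 2.05 and 1.80 FPKM in WGFT17 libraries, 3.18, 2.53 and 3.43 in JHU083 and 4.01, 3.92 and 3.45 in Control. WGFT17 was lowest and Control highest, without overlap. It fell by 1.18 with WGFT17 (SE 0.157, 2.26-fold lower, adjusted p = 7.35e-05), and -0.41 with JHU083 did not pass (adjusted p = 0.0762). The JHU083 change passed without JHU083 replicate 3 (-0.51, adjusted p = 0.0341) and in DESeq2 with all libraries (-0.42, adjusted p = 0.0470). The 8 lymphocyte markers summed to 32.8 to 34.8 CPM in WGFT17, 55.8 to 60.7 in JHU083 and 59.5 to 71.5 in Control. The sum was carried by Cd4 and Cd79b, while Cd8a had 0.26, 0.23 and 0.71 FPKM in WGFT17, against 0, 0.07 and 0.04 in Control. Their part in the change of Ada was not tested.

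Samhd1, which breaks down deoxynucleoside triphosphates, had 17.66, 16.30 and 17.61 FPKM in WGFT17 libraries, 21.15, 22.02 and 23.29 in JHU083 and 19.89, 20.65 and 21.02 in Control. WGFT17 was lowest, and it fell there by 0.36 (SE 0.055, adjusted p = 0.000181), beside 0.02 with JHU083 (95% interval -0.104 to 0.137). Pnp, the purine nucleoside phosphorylase, had 35.37, 34.43 and 31.02 FPKM in WGFT17, 37.54, 38.39 and 31.47 in JHU083 and 32.32, 33.70 and 31.82 in Control. The groups overlapped and neither change passed (-0.07, 95% interval -0.231 to 0.10, with WGFT17 and 0.04, -0.125 to 0.205, with JHU083). Of the 150-base stretches of Pnp, 14.53% occur in other genes, so its count is uncertain. Nt5c2, a cytosolic nucleotidase that acts on IMP and GMP, averaged 6.79 ± 0.138 FPKM in WGFT17, 5.40 ± 0.310 in JHU083 and 5.23 ± 0.10 in Control and rose with WGFT17 (0.27, SE 0.054, adjusted p = 0.00154).

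Gda, the guanine deaminase, averaged 3.75 ± 0.359 FPKM in WGFT17, 4.25 ± 0.448 in JHU083 and 3.04 ± 0.112 in Control. It rose with JHU083 (0.39, SE 0.096, adjusted p = 0.0149), a call lost without Control replicate 3 (0.374, adjusted p = 0.0567), and 0.20 with WGFT17 did not pass (adjusted p = 0.103). The WGFT17 change passed with JHU083 replicate 3 left out of the shared fit (0.195, adjusted p = 0.0459) and in limma on log2(FPKM + 1) (0.233, adjusted p = 0.0256). Upp1, the uridine phosphorylase, averaged 2.27 ± 0.137 FPKM in WGFT17, 1.35 ± 0.404 in JHU083 and 1.35 ± 0.440 in Control. Its changes of 0.64 with WGFT17 (adjusted p = 0.0637) and -0.08 with JHU083 (95% interval -0.685 to 0.525) did not pass. The JHU083 value turned to 0.141 without JHU083 replicate 3 and was -0.679 with that replicate alone. With WGFT17 it passed without Control replicate 3 (0.934, adjusted p = 0.0181) and without JHU083 replicate 3 (0.642, adjusted p = 0.0245).

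**Figure D3:**
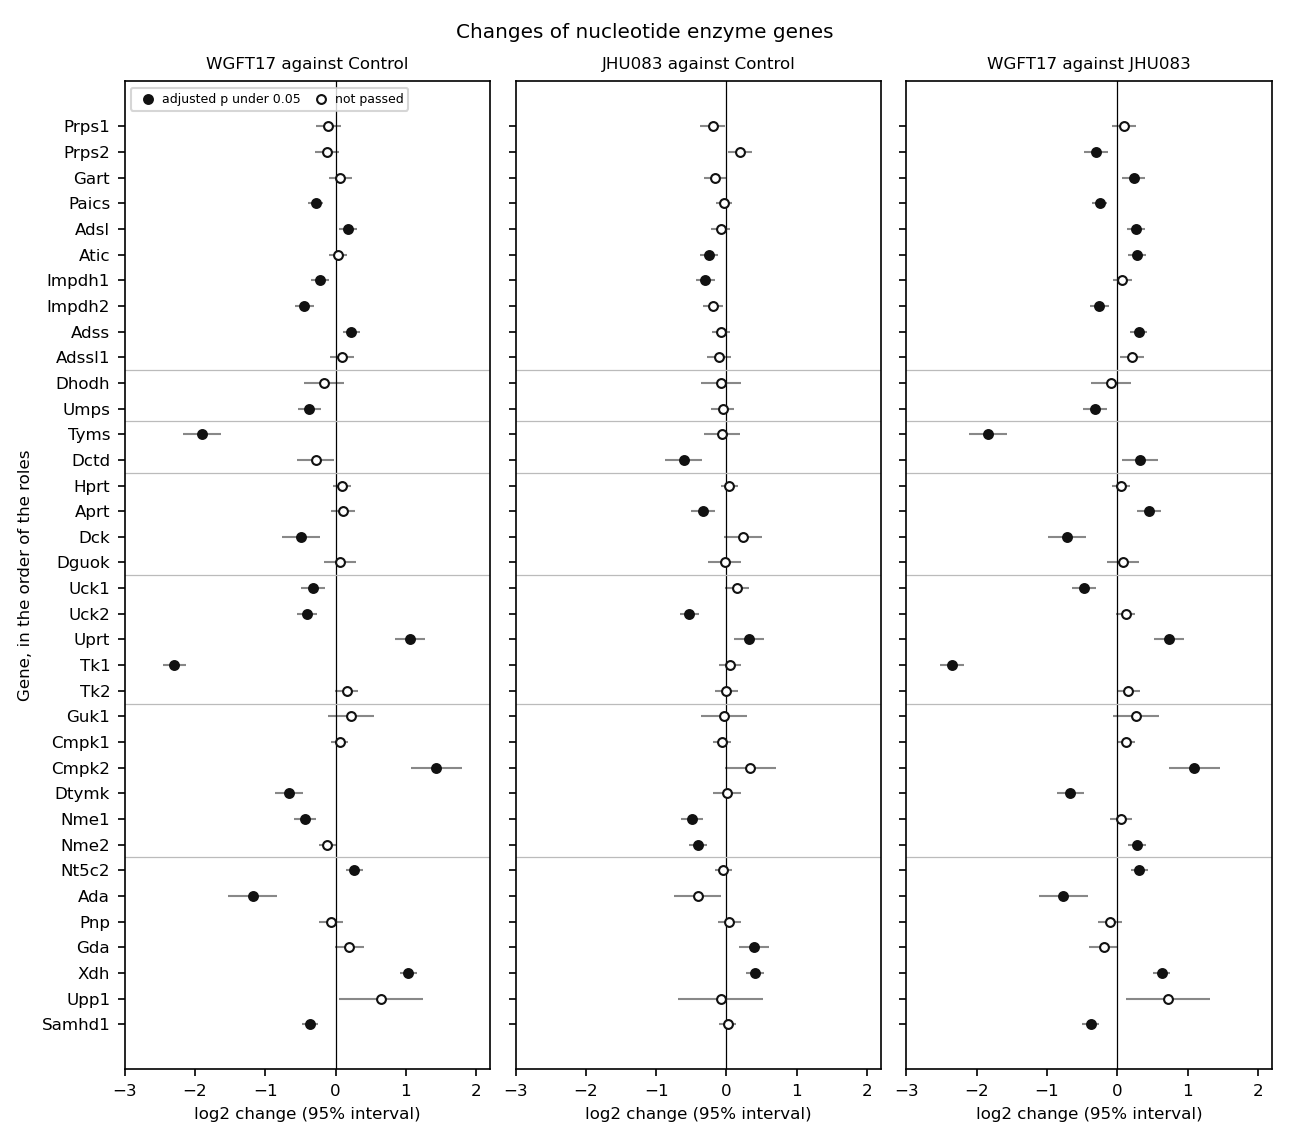
Points show the log2 change of each of the 36 tested genes (rows, in the order of their roles) for WGFT17 against Control, JHU083 against Control and WGFT17 against JHU083, with 95% intervals as lines; filled points passed at an adjusted p under 0.05. Tk1 at -2.29 and Tyms at -1.90 lie farthest left with WGFT17, whereas no value with JHU083 goes beyond -0.61.

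Set side by side, de novo and salvage genes moved little as groups. With WGFT17, 2 of 14 de novo genes rose and 5 fell (median log2 change -0.142), and 1 of 9 tested salvage genes rose and 4 fell (median 0.059). These are 50.0% and 55.6% called, beside 58.0% of all tested genes. With JHU083, no de novo gene rose and 3 fell (median -0.098), and 1 salvage gene rose and 2 fell (median 0.039). These are 21.4% and 33.3% called, beside 24.0% of all tested genes. The median over all 11798 tested genes was 0.004 in both comparisons. The de novo median minus the salvage median was -0.201 with WGFT17, and -0.08, -0.229 and -0.176 when each WGFT17 library was set against the Control mean. With JHU083 it was -0.137, and -0.138, -0.121 and -0.145 for single libraries. All of these single-library values are set against the same Control mean. The members are not replicates of a pathway, and the WGFT17 value depended on which low genes were included: it was -0.009 with no FPKM minimum and 0.014 with a minimum of 5 FPKM.

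Summed FPKM, in which the most abundant genes weigh most, gave a different order. De novo genes summed to 177.99, 177.62 and 176.86 FPKM in WGFT17 libraries, 177.08, 178.87 and 173.78 in JHU083 and 176.05, 176.98 and 183.46 in Control, with overlap between all groups. Salvage genes summed to 201.06, 207.52 and 192.02 FPKM in WGFT17, 192.71, 192.62 and 192.80 in JHU083 and 177.41, 190.72 and 190.99 in Control, where both drug groups lay above Control. Hprt made up about as much as all other salvage genes together. Kinases summed to 200.23, 211.48 and 212.75 FPKM in WGFT17, 180.43, 176.89 and 173.93 in JHU083 and 197.76, 217.76 and 207.34 in Control, the JHU083 libraries being lowest, as Nme2 was.

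Breakdown genes summed to 121.03, 119.66 and 119.55 FPKM in WGFT17 libraries, 107.78, 111.16 and 102.20 in JHU083 and 91.13, 91.54 and 91.62 in Control. The groups stood apart in the order of Xdh, the largest of the breakdown genes in WGFT17 cells. With WGFT17, 2 of 7 tested breakdown genes rose and 2 fell (median 0.195), and with JHU083 2 rose and none fell (median 0.017). Of the 6 kinases, 1 rose and 2 fell with WGFT17 (median -0.03) and 2 fell with JHU083 (median -0.052). With WGFT17, 57.1% of breakdown genes and 50.0% of kinases were called, beside 58.0% of all tested genes. With JHU083 it was 28.6% and 33.3%, beside 24.0%.

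**Figure D4:**
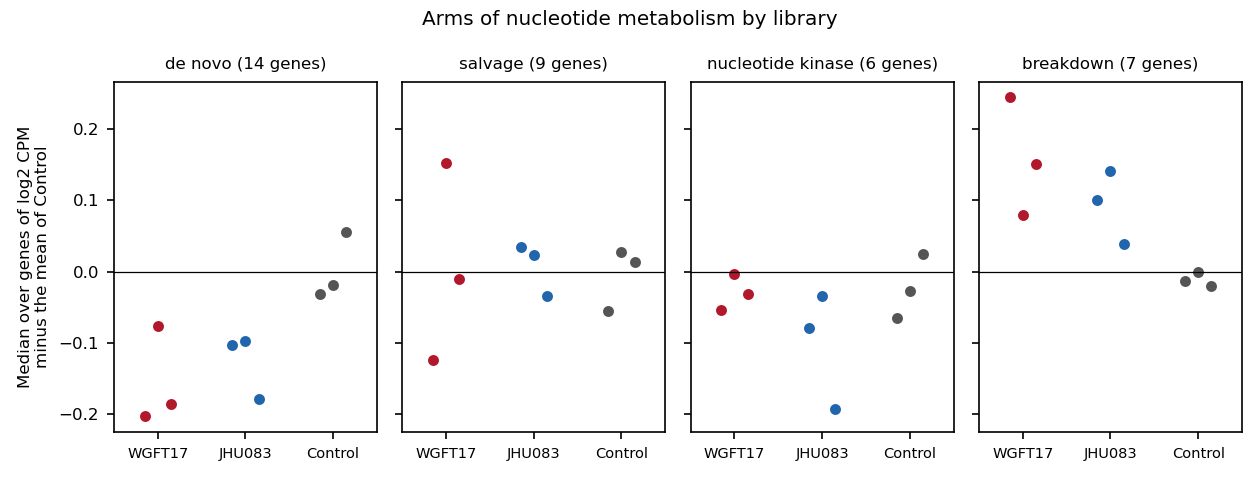
Points show, for each library of WGFT17, JHU083 and Control, the median over the tested genes of an arm of log2 CPM minus the Control mean; panels are the 14 de novo, 9 salvage, 6 kinase and 7 breakdown genes. De novo medians lie between -0.204 and -0.077 in WGFT17, -0.179 and -0.098 in JHU083 and -0.032 and 0.056 in Control, and breakdown medians between 0.08 and 0.245 in WGFT17, 0.039 and 0.141 in JHU083 and -0.02 and -0.001 in Control.

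The compounds were also compared directly at the shared time of 36 h, with unknown doses. Between WGFT17 and JHU083 cells, 11 nucleotide genes were higher in WGFT17, 11 were lower and 14 did not pass, which is 61.1% called beside 44.7% of all tested genes (20.4% higher and 24.4% lower). Differences of at least 0.5 were found for 8 of the 36, where 21.0% of all tested genes had one. Tk1 was lower in WGFT17 by 2.35 on the log2 scale (SE 0.076, adjusted p = 1.31e-09), as were Tyms (-1.84, SE 0.124, adjusted p = 3.36e-07), Ada (-0.77, SE 0.157, adjusted p = 0.00204), Dck (-0.72, SE 0.123, adjusted p = 0.000597) and Dtymk (-0.67, SE 0.088, adjusted p = 8.17e-05). Cmpk2 (1.09, SE 0.165, adjusted p = 0.000234), Uprt (0.74, SE 0.096, adjusted p = 7.83e-05) and Xdh (0.63, SE 0.056, adjusted p = 3.68e-06) were higher in WGFT17. Because Cmpk2 passed the FPKM minimum only through the WGFT17 libraries, its selection for testing favoured this difference as well. The same holds for Tyms, which passed it only through JHU083 and Control.

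The comparisons with Control share their Control libraries, so their calls are given side by side without a test of overlap. Uprt and Xdh rose with both compounds, and each was higher in WGFT17 than in JHU083. Impdh1, Uck2 and Nme1 fell with both. For these 3 the direct difference did not pass: it was 0.07 (95% interval -0.057 to 0.203) for Impdh1, 0.12 (-0.022 to 0.256) for Uck2 and 0.06 (-0.10 to 0.211) for Nme1. For Uck2 it passed without JHU083 replicate 1 (0.189, adjusted p = 0.0229). The 10 genes that fell with WGFT17 without a call for JHU083 were Paics, Impdh2, Umps, Tyms, Dck, Uck1, Tk1, Dtymk, Ada and Samhd1, and all 10 were lower in WGFT17 than in JHU083. The 4 that rose with WGFT17 without a call for JHU083 (Adsl, Adss, Cmpk2 and Nt5c2) were all higher in WGFT17 than in JHU083. No gene was called in opposite directions, and 12 passed with neither compound.

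Called with JHU083 and not with WGFT17 were 5 genes. Atic, Dctd, Aprt and Nme2 fell with JHU083, and all 4 were higher in WGFT17 than in JHU083. The difference was 0.28 for Atic (adjusted p = 0.00209), 0.44 for Aprt (SE 0.078, adjusted p = 0.000705), 0.28 for Nme2 (adjusted p = 0.00192) and 0.32 for Dctd (adjusted p = 0.0457). That of Dctd was called in 7 of 20 alternatives only, and was lost without any one of 8 of the 9 libraries, with changes of 0.287 without WGFT17 replicate 3 to 0.346 without JHU083 replicate 2. Gda, which rose with JHU083, did not differ detectably between the compounds (-0.20, 95% interval -0.407 to 0.015, adjusted p = 0.121). Prps2 (-0.31, adjusted p = 0.00725) and Gart (0.23, adjusted p = 0.0253) differed between the compounds though neither was called against Control. The Gart call was lost without JHU083 replicate 3 (0.166, adjusted p = 0.0539) and without each of WGFT17 replicates 1 to 3 (0.226 to 0.238).

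Of the 14 genes whose direct difference did not pass, the intervals of Hprt (0.05, 95% interval -0.075 to 0.173), Dguok (0.08, -0.148 to 0.315), Dhodh (-0.09, -0.38 to 0.196) and Prps1 (0.09, -0.082 to 0.268) covered 0 on both sides. For Upp1 the interval of 0.121 to 1.325 around 0.72 lay above 0, but the adjusted p was 0.0510. It passed in 12 of 20 alternatives, and the adjusted p ran from 0.0119 with JHU083 replicate 3 alone to 0.120 without it (differences of 1.321 and 0.501). Adssl1 (0.20, adjusted p = 0.0531) passed without JHU083 replicate 2 (0.257, adjusted p = 0.0302), in DESeq2 (0.215, adjusted p = 0.0218) and under other scalings. Without JHU083 replicate 3, Cmpk1 (0.172, adjusted p = 0.0123) and Pnp (-0.184, adjusted p = 0.0198) passed, and without WGFT17 replicate 1 Tk2 did (0.230, adjusted p = 0.0239). With JHU083 replicate 3 left out, 10 of the 36 genes were higher in WGFT17 than in JHU083 and 12 lower, and against Control 2 rose and 8 fell with JHU083.

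The remaining enzymes of nucleotide metabolism were taken as a list of 45 genes, of which 36 were tested. With WGFT17, 6 rose and 16 fell (median log2 change -0.257), and with JHU083 1 rose and 3 fell (median -0.066). That is 61.1% called with WGFT17 and 11.1% with JHU083, beside 58.0% and 24.0% of all tested genes. Between the compounds 3 were higher and 12 lower in WGFT17, which is 41.7% called beside 44.7% of all tested genes. Of the tested ribonucleotide reductase subunits, which make deoxynucleotides, Rrm1 and Rrm2 fell with WGFT17. Rrm1 averaged 3.89 ± 0.275 FPKM in WGFT17 and 14.3 ± 0.234 in Control (-1.98, adjusted p = 3.12e-10), and Rrm2 3.79 ± 0.462 FPKM in WGFT17 and 20.1 ± 0.104 in Control (-2.52, adjusted p = 1.02e-09). The subunit Rrm2b, named after its values were seen, rose: it averaged 1.60 ± 0.135 FPKM in WGFT17 and 0.993 ± 0.075 in Control (0.58, adjusted p = 0.00174). Enpp1, an ectoenzyme that splits nucleoside triphosphates, fell by 0.97 with WGFT17 (adjusted p = 2.69e-07). Ampd3, an AMP deaminase that returns AMP to IMP, rose to 16.6 ± 0.299 FPKM in WGFT17, against 7.43 ± 0.346 in Control (1.05, adjusted p = 3.36e-08).

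With JHU083, Rrm2 rose to 25.8 ± 1.14 FPKM, against 20.1 ± 0.104 in Control (0.27, adjusted p = 0.0293). Dctpp1, which clears dCTP (-0.56, adjusted p = 0.0110), the nucleoside transporter Slc29a1 (-0.22, adjusted p = 0.0226) and the mitochondrial kinase Nme4 (-0.51, adjusted p = 0.0275) fell. Between the compounds, Rrm1 (-1.99, adjusted p = 3.99e-10), Rrm2 (-2.78, adjusted p = 7.33e-10) and Entpd1, an ectoenzyme that hydrolyses ATP outside the cell (-0.82, adjusted p = 1.32e-06), were lower in WGFT17, and Ampd3 (0.92, adjusted p = 1.20e-07) was higher. Of the 6 glutamine-using enzymes of these pathways, Ctps fell (-0.60, adjusted p = 2.81e-06) and Ctps2 rose (0.26, adjusted p = 0.0025) with WGFT17, both being CTP synthases. With JHU083, Cad, which starts pyrimidine synthesis, fell by 0.39 (adjusted p = 0.00574), and the other 5 did not pass.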

How the data were processed

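RNA was measured in 9 libraries, 3 each of WGFT17, JHU083 and Control, made from poly(A) RNA, stranded by the dUTP method and read as pairs of 150 bases, per the labels' protocols. Per the submitters' processing notes, DESeq2, edgeR, StringTie 2.1.6, HISAT2 2.2.1 and cutadapt 1.9 were used with the build mm9, in roles not given there. The deposited FPKM values were scaled by the authors to the length of the transcript and to depth. The deposited expected counts, here estimated counts, are unscaled whole numbers, and needed no rounding. Values of 4 and 8 are in excess among low counts, so that 1 read pair gives about 4 counts. Whether counting used strand is not given in the sources used here. The labels' descriptions tie the table's column names to the samples, and all per-sample columns were matched. GENCODE M21 on GRCm38 gives the same start and end as the table for 31 of the 38 genes and for 26125 of 28926 identifiers found in both (90.3%), so positions are given in GRCm38.

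The 11798 genes that averaged 1 FPKM or more were tested with edgeR 4.0.16 (quasi-likelihood, TMM factors, all 9 libraries in 1 fit, R 4.3.3), adjusted by Benjamini-Hochberg within a comparison. The biological coefficient of variation was 0.122. SEs and 95% intervals belong to the log2 changes of this fit, and means and SDs to FPKM. Limma 3.58.1 on log2(FPKM + 1) or log2(FPKM + 0.1) and DESeq2 1.42.0 were alternatives, among 21. The test was checked on counts simulated from the Control means with the same spread for all genes and groups. It found 42% of simulated log2 changes of 0.5 for JHU083 against Control. For WGFT17 it found 63% against Control and 61% against JHU083, and 99% of changes of 1 in each comparison. Smaller changes that did not pass may thus have been missed. JHU083 libraries differed more from each other than those of the other groups did. Chi-square per degree of freedom, on counts divided by 4, was 19.96 and 19.54 for pairs with JHU083 replicate 3 and 7.94 for the other pair. Within WGFT17 and Control it was 3.86 to 5.54. This extra spread was not simulated, so the shares found may not hold for comparisons with JHU083. Arms were compared by medians and sums, without a test. CPM sums count each listed gene once.

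The 38 genes and all lists were chosen with earlier results of these data known. Values in every library are given for genes called against Control with an absolute log2 change of at least 0.5 and for the 3 genes of each role with the highest FPKM. Of the other enzymes, up to 4 called genes with the smallest adjusted p per comparison are named. Shared sequence was measured as 150-base stretches of transcripts that occur in another gene. RefSeq promoter windows were found for 36 of the 38 genes. They were searched for E2F sites, E-boxes, the NRF1 core GCATGCG and the interferon response element (GAAA, any 2 bases, GAAA) on both strands.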

Additional observations from a re-analysis of the deposited data

How the results depend on the processing

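No called change of the 38 genes reversed under any of the 21 alternatives. Of 51 calls, 43 held in all alternatives that gave a value. With a minimum of 5 FPKM, fewer genes were tested, and 4151 were called for WGFT17 against Control (6837 otherwise) and 3305 for WGFT17 against JHU083 (5277). Limma on FPKM, with either pseudocount, called 13 of the genes higher with WGFT17 (6 in the count fit) and 5 higher with JHU083 (3). It also moved the share of higher genes among all calls to 60.9% with WGFT17, against 48.3% in the count fit, and to 71.6% or 72.3% with JHU083, against 47.7%. Library totals alone gave 58.6% with JHU083. The de novo minus salvage median with WGFT17 was -0.201, but -0.009 with no FPKM minimum and 0.014 with a minimum of 5 FPKM. With JHU083 it was -0.137, and -0.118 and -0.159 under these filters. Leaving out single libraries gave -0.201 to -0.125 with JHU083, -0.036 to 0.049 between the compounds, 1534 to 3731 genes called with JHU083 (2831 with all; lowest without Control replicate 2, highest without JHU083 replicate 3, and 1568 without Control replicate 3), and 1 to 3 of the genes higher with JHU083 (1 without Control replicate 3). The cause of these shifts was not tested. Deviations from the group means correlated at -0.034 to 0.161 between same-numbered libraries and at -0.146 to 0.133 between the others. The highest value was that of WGFT17 replicate 3 with Control replicate 3, so these values do not settle whether replicate numbers were paired. With the replicate number as a block, 6530 genes were called with WGFT17, 2330 with JHU083 and 4907 between the compounds. With this block, 6 of the nucleotide genes were higher and 13 lower with WGFT17, 2 and 7 with JHU083, and 9 and 11 between the compounds. Upp1 and Cmpk2, both low, had the widest intervals of the tested genes (SE up to 0.275 and 0.166).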

Other observations

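Further marker lists differed between the groups beside the nucleotide genes, and their part in the changes was not tested. The 6 dendritic cell genes summed to 115 to 134 CPM in WGFT17, 367 to 405 in JHU083 and 368 to 532 in Control. The 3 that were tested fell with WGFT17. Ccr7, too low to be tested, went the other way, with 0.69, 0.43 and 0.96 FPKM in WGFT17 and 0.08, 0.08 and 0.06 in Control. The 9 neutrophil genes summed to 15.8 to 25.5 CPM in WGFT17, 39.9 to 47.8 in JHU083 and 72.6 to 81.2 in Control, with 2 of them at 0 in all WGFT17 libraries. The 16 liver genes summed to 857 to 1320 CPM in WGFT17, 1330 to 1830 in JHU083 and 2590 to 2760 in Control. Against Control, 12 of the 16 fell with WGFT17 and 13 with JHU083. Between the compounds, 1 was lower in WGFT17 and 15 did not pass, with a median log2 change of 0.229, so most did not follow the order of the sums. Trf had 174.33, 189.01 and 159.05 FPKM in WGFT17, against 294.34, 313.41 and 287.25 in JHU083. The 6 erythroid genes summed to 3.34 to 10.7 CPM in WGFT17, 5.23 to 10.8 in JHU083 and 5.06 to 6.43 in Control, where no tested gene of 3 passed in any comparison.

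The NRF1 core was found in the windows of Uck1 alone among the 36 genes with a window. This was 2 of 51 windows, beside 3.6% of all windows. The interferon response element was found for Cmpk1 alone, in 1 of 51 windows, beside 3.4% of all windows. Cmpk2, which rose with the interferon-induced genes, held no exact match to that element in its window, which says nothing of other sequence or of the factors that bind it.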
